A study of Mus musculus with 8 samples.

Results

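Of the 47706 genes in the count table of calvarial osteoblasts, 54 carry a symbol that begins with Psm, a letter from a to g and a number, the naming pattern of the proteasome subunits. In 48 of these nothing follows the number, and they are described here as the proteasome subunit genes. Of the 48, 16 encode the constitutive core particle, 3 encode the subunits of the immunoproteasome (Psmb8, Psmb9 and Psmb10), and 29 encode regulatory and assembly proteins. The other 6 symbols carry a suffix and were kept apart. The filter on low counts was passed by 47 of the 48 genes, and Psmb11 did not pass it.

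The proteasome is the cytosolic and nuclear protease that degrades proteins tagged with ubiquitin. Its core particle is a barrel in which rings of α subunits, encoded by the Psma genes, form gates around rings of β subunits, encoded by the Psmb genes, some of which carry the proteolytic sites. A regulatory particle with a ring of ATPases (the Psmc genes) and a set of scaffold, ubiquitin-binding and deubiquitinating subunits (most Psmd genes) unfolds substrates and feeds them into the core. In osteoblasts, proteasomal degradation is known to set the amount of lineage factors such as Runx2, and parathyroid hormone (PTH) is known to promote it.

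Calvarial osteoblasts received either PTH (4 samples) or vehicle (4 samples) for 24 hours from day 7 of differentiation, their RNA was sequenced, and the question was which subunit genes responded to the hormone. The cells were isolated from the skullcaps of neonatal mice. For the sequenced cultures the methods give truncated PTH after a short serum starvation that both groups shared, and they name no vehicle. Human PTH acetate, with buffered saline as vehicle, is described for the study's matrix deposition cultures. The labels name adipogenic differentiation, whereas the methods describe osteogenic medium, and the prefix Con in the sample names is not explained. The methods name a C57BL/6 background for the mice of the study without naming the strain of the sequenced cultures, and nothing says that the 4 samples of a group came from separate cell isolations, so that p-values measure the spread between these samples, which may be technical. The cultures were primary and mixed: 10 osteoblast markers had a median of 208 to 353 CPM (counts scaled to a common TMM-normalized library size) in the 8 samples, with none at 0. However, 4 of the 10 fell with PTH and none rose, against 22.5% down and 23.3% up over all genes tested. Those that fell were Sp7 (to 0.292-fold), Dmp1 (to 0.459-fold), Pth1r (to 0.615-fold) and Runx2 (to 0.794-fold). The summed level of 8 adipocyte markers was 46.4 to 68.6 CPM with PTH and 48.7 to 65.2 CPM with vehicle, with Pparg falling to 0.353-fold, while that of 4 endothelial markers did not exceed 3.13 CPM. Total counts were 33605610 to 56090654 per sample.

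PTH raised the mRNA of nearly every constitutive core subunit and of a smaller share of the regulatory subunits. Of the 3 immunoproteasome subunits, Psmb8 was called up, a call that was made in 5 of 16 other settings. Of the 16 core genes 15 were tested, and 14 were upregulated by PTH and none downregulated at an adjusted p under 0.05 (quasi-likelihood F-test of edgeR, Benjamini-Hochberg adjustment over 16736 genes). Of all genes tested, 45.8% were called, 23.3% up and 22.5% down. The median log2 fold change was 0.34 over the 15 core genes and -0.0008 over all genes tested. All 14 core genes had every PTH sample above every vehicle sample, a pattern seen in 21.2% of all genes tested. The changes were small, from 1.21-fold for Psmb3 to 1.63-fold for Psma7. The summed level of these 14 genes was 1425 ± 83.4 CPM with PTH and 1078 ± 41.5 CPM with vehicle (SD, n = 4), which is 32.2% higher, with sums of 1355 to 1534 against 1038 to 1137 CPM.

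**Figure D1:**
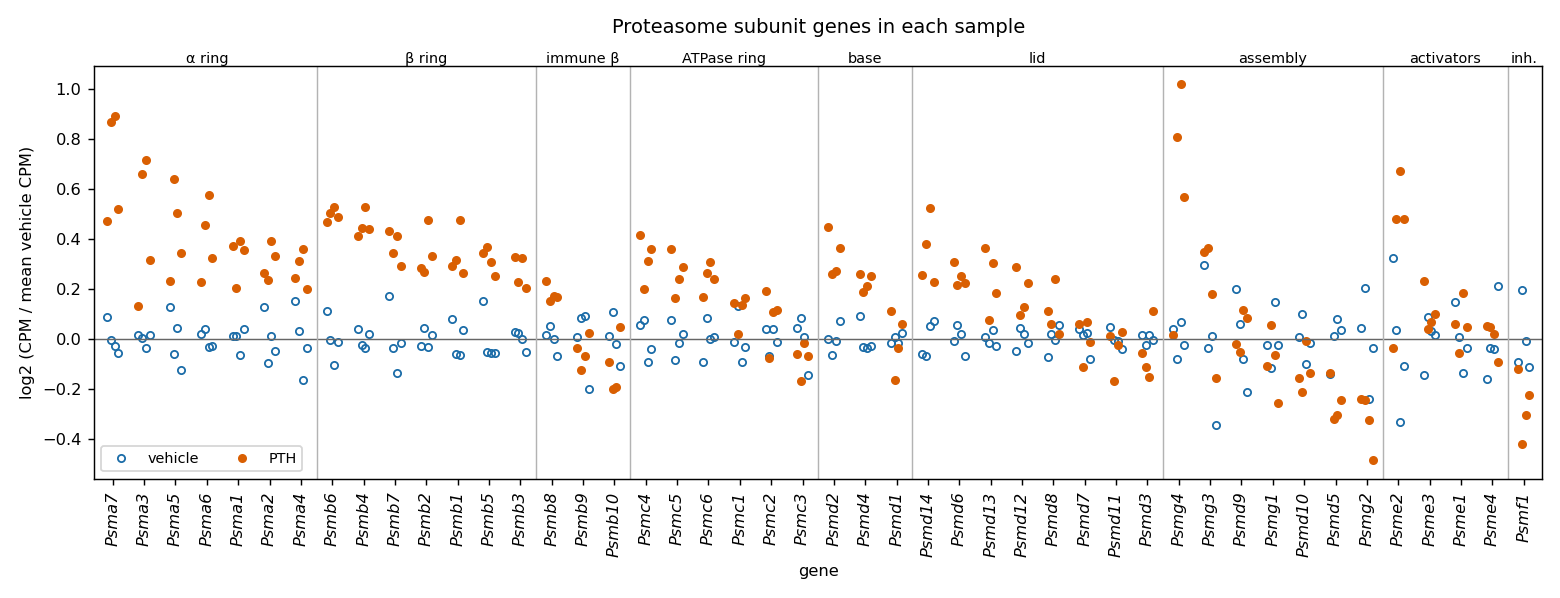
Log2 of each sample's CPM over the mean CPM of the vehicle samples, for the proteasome subunit genes by role, with 4 vehicle samples (open circles) and 4 PTH samples (filled circles) per gene. Psma8 and Psmb11 are left out for their low counts. The PTH points lie above all vehicle points for the 14 core genes, and they overlap with the vehicle points for all 7 assembly genes and all 4 activators. Over all genes tested, 21.2% had every PTH sample above every vehicle sample and 21.8% below.

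Of the 8 α ring genes 7 rose. Psma7, which encodes an α ring subunit (chr2:180036374-180042433, minus strand, GRCm38), had 121, 159.9, 163 and 126 CPM in PTH samples 1 to 4 and 93.0, 87.2, 85.9 and 84.2 CPM in vehicle samples 1 to 4. Its log2 fold change was 0.70 ± 0.10 (SE, adjusted p = 0.000108), the largest among the core genes. The groups did not overlap, and PTH samples 2 and 3 stood well above samples 1 and 4. Psma3 showed the same division, with 79.6, 115, 119.7 and 90.6 CPM against 71.0 to 73.5 CPM, and a log2 fold change of 0.48 ± 0.11 (adjusted p = 0.0044). Psma4 changed least among those that rose. It had 102, 108, 111 and 99.4 CPM with PTH and 96.2, 88.4, 77.2 and 84.4 CPM with vehicle, and a log2 fold change of 0.28 ± 0.07 (adjusted p = 0.00864). Its lowest PTH sample exceeded its highest vehicle sample by a narrow margin. The log2 fold changes of Psma5, Psma6, Psma1 and Psma2 were 0.44, 0.40, 0.33 and 0.31. The remaining gene, Psma8, encodes the α subunit of the testis proteasome and had between 8 and 38 counts in a sample, and its change was -0.43 ± 0.40 on the log2 scale (adjusted p = 0.409).

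All 7 β ring genes that were tested rose. Psmb6 encodes the subunit with caspase-like activity (chr11:70525367-70527858, plus strand, GRCm38). It had 110.2, 113, 115 and 112 CPM with PTH and 86.1, 79.3, 74.1 and 79.0 CPM with vehicle, a log2 fold change of 0.50 ± 0.06 (adjusted p = 3.9e-05). Its PTH samples lay close together and far from the vehicle samples. Psmb7, which encodes the subunit with trypsin-like activity, had 84.8, 79.7, 83.6 and 77.1 CPM with PTH and 70.8, 61.3, 57.2 and 62.1 CPM with vehicle. Its log2 fold change was 0.37 ± 0.07 (adjusted p = 0.00136). Psmb5 encodes the subunit with chymotrypsin-like activity, the main target of the drug bortezomib. It had 69.6, 70.8, 67.9 and 65.3 CPM with PTH and 60.9, 52.9, 52.8 and 52.8 CPM with vehicle, a log2 fold change of 0.32 ± 0.07 (adjusted p = 0.00213). The groups did not overlap for either gene, and vehicle sample 1 was the highest vehicle sample in both. Psmb3, a noncatalytic β subunit, had the smallest change, with 76.0, 70.8, 75.7 and 69.6 CPM against 61.7, 61.5, 60.5 and 58.3 CPM and a log2 fold change of 0.27 ± 0.06 (adjusted p = 0.00258). The other noncatalytic subunits Psmb4, Psmb2 and Psmb1 had log2 fold changes of 0.46, 0.34 and 0.34. Psmb11, the β subunit of the thymus proteasome, had at most 4 counts in any sample.

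Transcript length moved with the core result. The 14 core transcripts had a median length of 1162.5 bases, against 2801 bases for all genes tested. Over all genes tested, the 1840 genes with a transcript of at most 1000 bases had a median log2 fold change of 0.36, with 36.9% of them called up, and the 7401 genes over 3000 bases had a median of -0.07. The shift was uneven between samples: the median log2 deviation of the short genes was -0.01, 0.31, 0.35 and 0.10 in PTH samples 1 to 4 and lay between -0.20 and -0.07 in the vehicle samples. PTH sample 3 was the highest of the 4 PTH samples for 10 of the 14 core genes. With an offset for transcript length in each sample, 11 of the 14 core genes were still called up, where 23.2% of all genes were, and their median log2 fold change was 0.26. Psmb2 (0.12), Psmb5 (0.11) and Psmb3 (0.01) were no longer called. The offset rests on annotated lengths. It raised Psma3 (2846 bases) from 0.48 to 0.55, Psma2 (2911 bases) from 0.31 to 0.39 and Psmb1 (1758 bases) from 0.34 to 0.36. Shorter forms of these transcripts would change the values with the offset, which was not tested. When PTH samples 2 and 3 were left out, 14 core genes were called up and the median over the 15 tested was 0.31. Within classes of length, the 8 subunit genes of at most 1000 bases had a median log2 fold change of 0.38, close to the 0.36 of all short genes. In the class from 1000 to 1500 bases the 16 subunit genes had a median of 0.26 against 0.10, and in the class from 1500 to 2000 bases the 11 subunit genes had 0.12 against -0.01. The 8 subunit genes from 2000 to 3000 bases, Psma2 and Psma3 among them, had a median of 0.18 against -0.06. The 4 longer ones had -0.13 against -0.07.

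**Figure D2:**
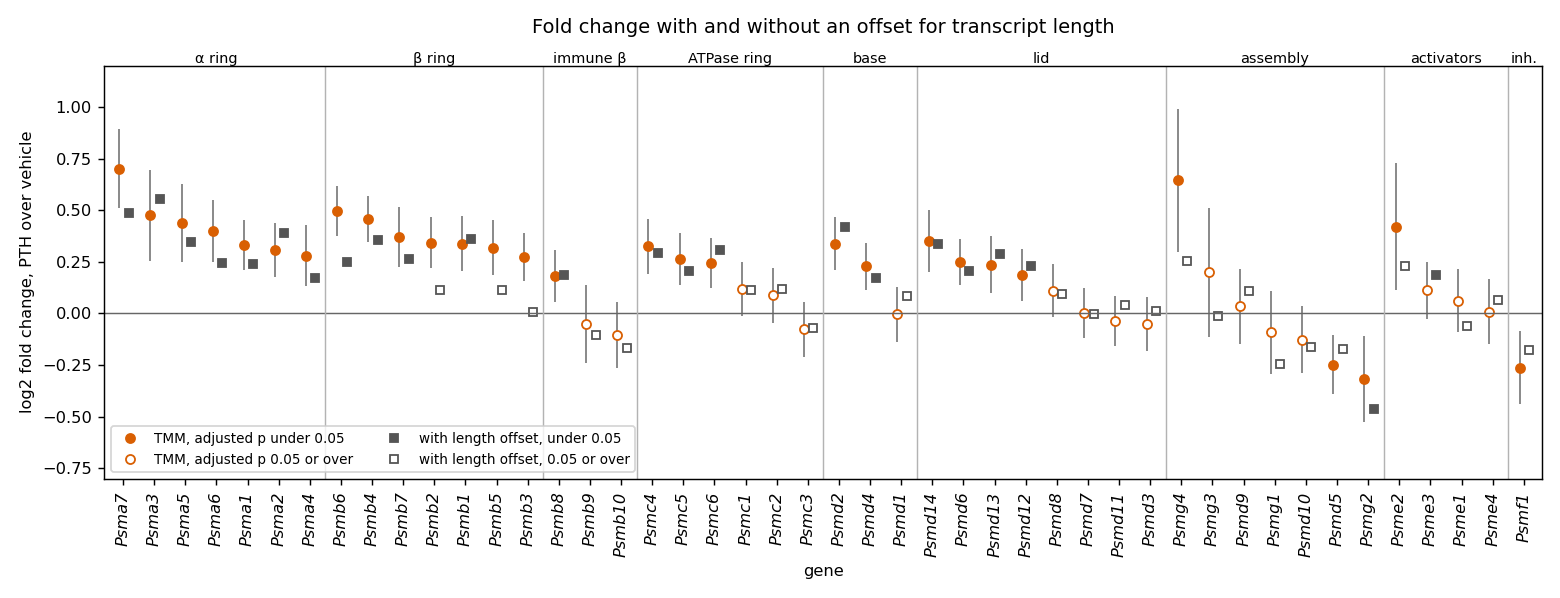
Log2 fold change of PTH over vehicle for the subunit genes by role, with TMM normalization (circles, bars are the 95% confidence interval) and with an added offset for transcript length (squares), filled where the adjusted p was under 0.05. The offset lowered most core genes with short transcripts, with Psmb3 going from 0.27 to 0.01, and raised those annotated with long transcripts, with Psma3 going from 0.48 to 0.55.

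The immunoproteasome genes encode catalytic subunits that replace the constitutive ones in immune cells and in cells exposed to interferon: Psmb9 replaces Psmb6, Psmb10 replaces Psmb7, and Psmb8 replaces Psmb5. Of the 3 genes, 1 was called up, where 23.3% of all genes tested were. Psmb8 had 30.4, 28.8, 29.1 and 29.1 CPM with PTH and 26.2, 26.8, 25.9 and 24.7 CPM with vehicle. Its log2 fold change was 0.18 ± 0.06 (adjusted p = 0.0366), and the groups did not overlap. Over the 16 other settings its adjusted p was 0.0273 to 0.137. DESeq2 (0.065) and the fit with the sample number as a block (0.0939) did not call it, and 1 of the 8 fits that left out a sample did. Psmb9 had 11.1, 10.4, 10.9 and 11.6 CPM with PTH and 11.4, 12.1, 12.1 and 9.90 CPM with vehicle, a log2 fold change of -0.05 with a 95% interval of -0.24 to 0.14 (adjusted p = 0.708). Psmb10 had 25.0, 23.2, 23.3 and 27.5 CPM with PTH and 26.9, 28.7, 26.2 and 24.7 CPM with vehicle, a log2 fold change of -0.11 with an interval of -0.26 to 0.05 (adjusted p = 0.315). The groups overlapped for both genes. The difference in fold change between the immune and the constitutive subunits was not tested.

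Set against the constitutive partner within each sample, on the scale of CPM per kilobase of transcript, all 3 immune subunits had a lower mean ratio with PTH, and in 2 of them the groups were apart. The ratio of Psmb9 to Psmb6 was 0.0593, 0.0545, 0.0558 and 0.0612 with PTH and 0.0784, 0.0897, 0.0965 and 0.0739 with vehicle. The ratio of Psmb10 to Psmb7 was 0.261, 0.257, 0.246 and 0.316 with PTH and 0.336, 0.414, 0.406 and 0.352 with vehicle. Neither ratio overlapped between the groups, whereas that of Psmb8 to Psmb5 did, with 0.225 to 0.246 against 0.237 to 0.280 (means of 0.237 and 0.262). The partners differ in transcript length, with 798 bases for Psmb6 and 1352 for Psmb9. With the length offset the log2 fold change was 0.25 for Psmb6 and -0.10 for Psmb9, 0.26 for Psmb7 and -0.17 for Psmb10, and 0.11 for Psmb5 and 0.19 for Psmb8, so that the order of the last pair was turned. These ratios are a description of the 8 samples and carry no test. In every sample the immune subunit stood below its constitutive partner.

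**Figure D3:**
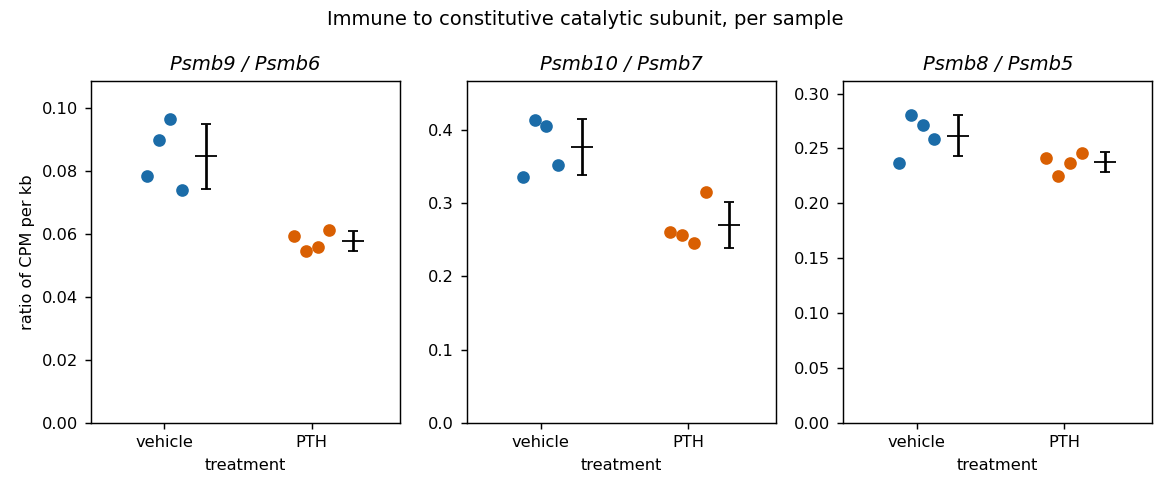
Ratio of each immune catalytic subunit to the constitutive subunit that it replaces, in CPM per kilobase of transcript, for each of the 4 vehicle and 4 PTH samples (points), with the mean and SD beside them. The axes start at 0. The PTH points lie below all vehicle points for Psmb9 over Psmb6 and for Psmb10 over Psmb7, and the groups overlap for Psmb8 over Psmb5.

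The promoters of the core gene with the largest change, of the constitutive subunits Psmb6 and Psmb5, and of their immune counterparts are shown because the comparison of constitutive with immune subunits turns on these genes. Each is the 250 bases before the transcription start, 5′ to 3′ on the gene's strand, from RefSeq (GRCm38.p6). Capitals mark CCAAT, the letters bound by NF-Y, or ATTGG, the same letters on the opposite strand, in Psma7 and Psmb9. In Psmb6 and Psmb5 they mark TGACNNNGC, the core letters of the antioxidant response element that the factors Nfe2l1 and Nfe2l2 bind with small Maf proteins. None of the motifs searched lay in the stretch of Psmb8. The stretches of Psmb9 and Psmb8 precede the RefSeq start but lie inside the genes as GENCODE places them. GENCODE gives chr17:34181987-34187764 for Psmb9 and chr17:34197721-34201454 for Psmb8. The Psma7 stretch is chr2:180042465-180042714 (minus), that of Psmb6 chr11:70525107-70525356 (plus) and that of Psmb5 chr14:54617996-54618245 (minus). Those of the immune genes are chr17:34187331-34187580 (minus) for Psmb9 and chr17:34197945-34198194 (plus) for Psmb8.
Psma7: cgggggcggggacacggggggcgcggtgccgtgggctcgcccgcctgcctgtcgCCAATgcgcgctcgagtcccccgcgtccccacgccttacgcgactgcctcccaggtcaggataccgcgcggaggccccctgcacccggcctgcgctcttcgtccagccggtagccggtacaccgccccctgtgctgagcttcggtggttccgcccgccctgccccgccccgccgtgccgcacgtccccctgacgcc
Psmb6: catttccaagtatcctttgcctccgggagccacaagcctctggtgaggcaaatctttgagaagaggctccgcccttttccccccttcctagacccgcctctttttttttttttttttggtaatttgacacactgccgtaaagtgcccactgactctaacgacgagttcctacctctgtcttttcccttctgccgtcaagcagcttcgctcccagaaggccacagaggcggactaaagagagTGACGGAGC
Psmb5: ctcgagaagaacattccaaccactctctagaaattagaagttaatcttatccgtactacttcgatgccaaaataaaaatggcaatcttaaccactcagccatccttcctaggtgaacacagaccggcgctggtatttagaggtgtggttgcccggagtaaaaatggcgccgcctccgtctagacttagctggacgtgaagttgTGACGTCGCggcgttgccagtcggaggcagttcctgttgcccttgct
Psmb9: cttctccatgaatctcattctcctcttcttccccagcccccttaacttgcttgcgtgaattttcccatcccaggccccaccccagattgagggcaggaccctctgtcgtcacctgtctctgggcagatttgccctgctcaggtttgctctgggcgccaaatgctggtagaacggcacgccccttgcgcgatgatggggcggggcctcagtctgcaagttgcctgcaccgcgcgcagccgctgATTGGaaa
Psmb8: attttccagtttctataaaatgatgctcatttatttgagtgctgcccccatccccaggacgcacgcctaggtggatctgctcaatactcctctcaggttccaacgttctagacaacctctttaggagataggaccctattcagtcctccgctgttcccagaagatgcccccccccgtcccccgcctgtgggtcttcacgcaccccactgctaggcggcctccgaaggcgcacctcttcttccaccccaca

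A window from 250 bases before to 50 bases after the start was found for 40 of the 48 subunit genes, and the letters were searched on both strands. TGACNNNGC occurred in 6 of the 40 windows (15%), against 14% of the windows of all 27025 genes. The 6 genes were Psmb5, Psmb6, Psmc6, Psmd12, Psmd9 and Psme4, of which the first 4 were upregulated by PTH. Of the 47 subunit genes tested, 26 were upregulated, and of all genes tested 23.3% were. CCAAT occurred in 14 of 40 (35%) against 41.1% of all, and in 6 of the 11 upregulated core genes that had a window. The core letters of the interferon-stimulated response element, GAAA on either side of 2 bases of any kind, occurred in 5 of 40 (12.5%) against 3.99% of all. The 5 genes were Psmb3, Psmd4, Psmd9, Psme1 and Psmg4. No window of an immunoproteasome gene held these letters, but the stretches shown for Psmb8 and Psmb9 lie inside the genes as GENCODE places them. TGACGTCA, the full cAMP response element, occurred in none of the 40 windows against 2.03% of all. The window of Psmb9 shares 275 bases with that of Tap1, a peptide transporter gene that lies head to head with it. A match of these letters is a description of the sequence and no evidence of binding.

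Of the 29 regulatory and assembly genes, 11 were upregulated and 3 were downregulated, where 23.3% and 22.5% of all genes tested were. The other 15 were not called, and the median log2 fold change of the 29 genes was 0.11. In 9 of them every PTH sample lay above every vehicle sample and in 1 below (21.2% and 21.8% of all genes). Their summed level was 2116 ± 72.8 CPM with PTH and 1950 ± 16.6 CPM with vehicle, 8.51% higher. In the base and lid of the regulatory particle 9 of 17 genes rose and none fell, with a median of 0.19 and a summed level that was 10.3% higher. With the length offset 10 of the 29 regulatory genes were called up and 1 down, where 23.2% and 20.6% of all genes were. In the base and lid the same number as before, 9 of 17, was called up. The 29 transcripts had a median length of 1591 bases, against 1162.5 bases for the 14 core transcripts. The difference between core and regulatory genes was not tested. With the sample number as a block, 14 core genes and 9 regulatory genes were called up, where 21.3% of all genes were.

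In the ATPase ring, whose 6 subunits unfold substrates, 3 genes rose, where 23.3% of all genes tested did. Psmc4 had 88.7, 76.3, 82.6 and 85.2 CPM with PTH and 69.0, 69.9, 62.3 and 64.6 CPM with vehicle, a log2 fold change of 0.32 ± 0.07 (adjusted p = 0.00196). Psmc5 and Psmc6 had log2 fold changes of 0.26 and 0.24, and all 3 separated the groups. Psmc3 was nearest to no change, with 147, 136, 152 and 146 CPM against 158, 162, 154 and 139 CPM and a log2 fold change of -0.08 with an interval of -0.21 to 0.05 (adjusted p = 0.378). Psmc1 and Psmc2 had log2 fold changes of 0.12 and 0.09 and did not pass the test. The difference between the members of the ring was not tested.

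Among the other base subunits, Psmd2 and Psmd4 rose and Psmd1 did not. Psmd2, a large scaffold that binds the shuttle factors of ubiquitinated proteins, had 241, 211, 213 and 227 CPM with PTH and 176, 169, 175 and 185 CPM with vehicle, a log2 fold change of 0.34 ± 0.07 (adjusted p = 0.00122). Psmd4, a ubiquitin receptor, had a log2 fold change of 0.23. Psmd1, the second large scaffold, had 141, 117, 127 and 136 CPM against 129, 131, 129 and 133 CPM, a log2 fold change of -0.0042 with an interval of -0.14 to 0.13 (adjusted p = 0.966). Its PTH samples lay on both sides of its tightly grouped vehicle samples.

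In the lid 4 of 8 genes rose, where 23.3% of all genes tested did. Psmd14 encodes the deubiquitinase that removes ubiquitin chains as the substrate is pulled in. It had 65.3, 71.1, 78.8 and 64.0 CPM with PTH and 52.4, 52.2, 56.6 and 57.5 CPM with vehicle, a log2 fold change of 0.35 ± 0.08 (adjusted p = 0.00264). Psmd7, its inactive partner in the lid, was nearest to no change, with 96.9, 86.1, 97.7 and 92.3 CPM against 95.8, 94.0, 94.5 and 88.1 CPM and a log2 fold change of 0.0025 with an interval of -0.12 to 0.12 (adjusted p = 0.977). The structural lid subunits Psmd6, Psmd13 and Psmd12 rose, with log2 fold changes of 0.25, 0.24 and 0.19. The call of Psmd12 was made in 6 of 16 other settings (adjusted p of 0.0152 to 0.153) and that of Psmd13 in 12 of 16 (0.00264 to 0.0742). Psmd8 (0.11), Psmd11 (-0.04) and Psmd3 (-0.05) did not pass the test.

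The assembly chaperones, which build the core and the base but are not part of the finished particle, had no common direction. Of 7 genes, 1 rose and 2 fell, where 23.3% and 22.5% of all genes tested did, and their median log2 fold change was -0.09. No gene had its groups fully apart, against 21.2% of all genes tested with PTH above and 21.8% with PTH below. Psmg4, a chaperone of the α ring, had 7.47, 12.9, 14.98 and 10.96 CPM with PTH and 7.59, 6.98, 7.74 and 7.26 CPM with vehicle, a log2 fold change of 0.64 ± 0.18 (adjusted p = 0.0103). PTH sample 1 lay within the vehicle range. Its transcript is 555 bases long, and with the length offset its log2 fold change was 0.25 (adjusted p = 0.141). Psmg2, another α ring chaperone, had 13.7, 13.7, 12.9 and 11.6 CPM with PTH and 16.6, 18.6, 13.7 and 15.7 CPM with vehicle, a log2 fold change of -0.32 ± 0.11 (adjusted p = 0.0276). Psmd5, a chaperone of the base, had 36.9, 32.5, 32.8 and 34.2 CPM with PTH and 36.8, 40.9, 42.8 and 41.6 CPM with vehicle, a log2 fold change of -0.25 ± 0.07 (adjusted p = 0.0146). In both genes the groups met at 1 sample. The call of Psmg2 was made in 12 of 16 other settings (adjusted p of 0.00387 to 0.0828) and that of Psmd5 in 14 of 16 (0.00651 to 0.0634). Psmd9, also a base chaperone, had 26.1, 25.5, 28.7 and 28.03 CPM against 30.3, 27.6, 25.0 and 22.8 CPM and a log2 fold change of 0.03 (adjusted p = 0.788). Psmg3, Psmg1 and Psmd10 had log2 fold changes of 0.20, -0.09 and -0.13 and were not called.

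Of the 4 activators that can cap the core in place of the regulatory particle, 1 was called, where 45.8% of all genes tested were. Psme2, whose product forms an interferon-inducible cap together with that of Psme1, had 29.7, 42.5, 48.6 and 42.6 CPM with PTH and 38.2, 31.3, 24.2 and 28.3 CPM with vehicle. Its log2 fold change was 0.42 ± 0.16 (adjusted p = 0.0438), the groups overlapped, and the call was made in 7 of 16 other settings (adjusted p of 0.0037 to 0.158). Psme1 had a log2 fold change of 0.06 with an interval of -0.09 to 0.21 (adjusted p = 0.543), and Psme3, which encodes a nuclear activator, one of 0.11 (adjusted p = 0.214). Psme4, the largest activator, had 103, 103, 101 and 93.6 CPM with PTH and 89.1, 97.2, 97.0 and 115 CPM with vehicle, a log2 fold change of 0.0089 (adjusted p = 0.938). Psmf1 encodes a protein that inhibits the core in vitro. It had 32.5, 26.4, 28.6 and 30.3 CPM with PTH and 33.2, 40.5, 35.1 and 32.7 CPM with vehicle, a log2 fold change of -0.26 ± 0.09 (adjusted p = 0.0315). All its PTH samples lay below its vehicle samples, the nearest pair by a narrow margin, and the call was made in 9 of 16 other settings (adjusted p of 0.0132 to 0.128). Without PTH samples 2 and 3, none of the 3 downregulated genes was called.

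In vehicle-treated cultures the levels of the roles, in CPM per kilobase of transcript, overlapped widely and differed in their medians, which were not compared by a test. The 14 core genes had a median level of 71.2, from 22.7 ± 1.78 for Psma5 to 99.8 ± 6.19 for Psmb6 (SD, n = 4), a range of 4.39-fold among subunits that enter the particle in equal number. The ATPase ring had a median of 47.8, with levels from 34.2 to 93.8, and the lid one of 43.0, with levels from 23.8 to 77.4, while the assembly chaperones had a median of 10.8. The immunoproteasome genes had levels of 15.9 for Psmb8, 8.42 for Psmb9 and 20.3 for Psmb10, all below the lowest of these 14 core genes. Neighbouring genes in this order often lay within each other's SD, as Psmb4 (94.1 ± 2.38) and Psmb2 (92.4 ± 2.40) did. The levels of Psma2 and Psma3 rest on annotated transcripts of 2911 and 2846 bases, much longer than those of the other α ring genes, and a shorter form would give them a higher level. With PTH the median level of the 14 core genes was 90.2.

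**Figure D4:**
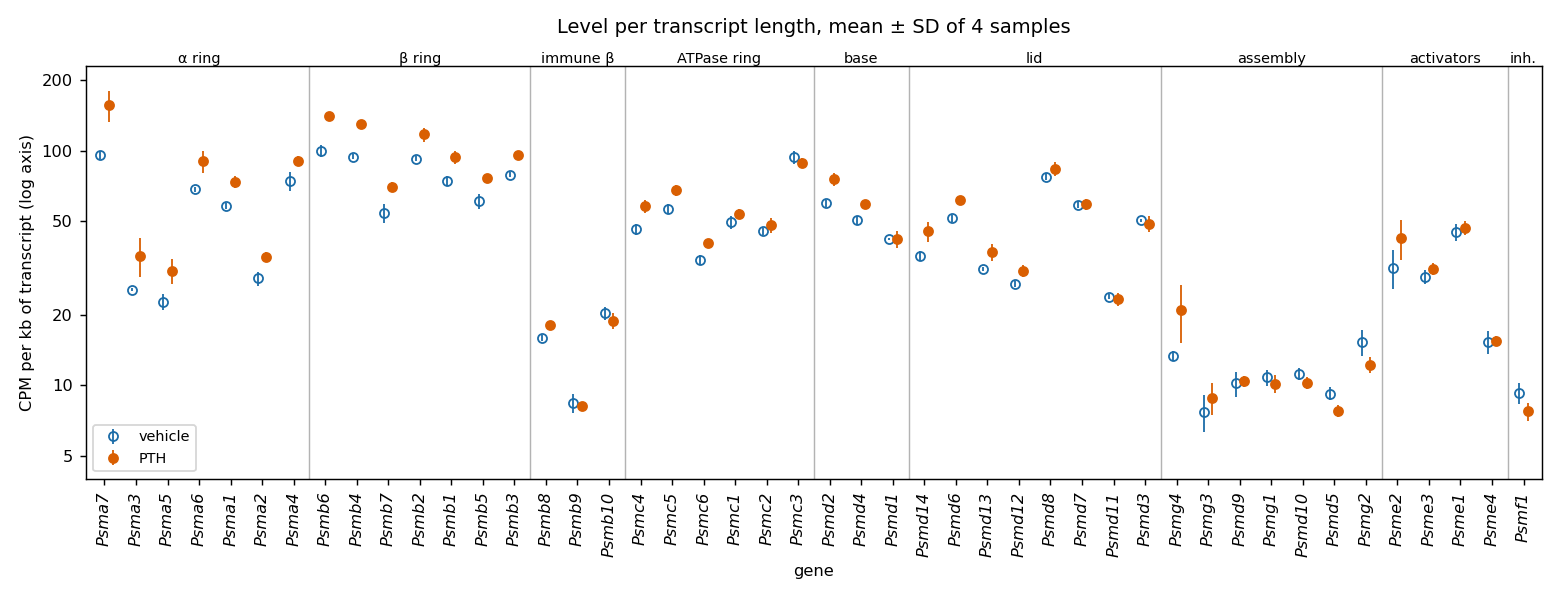
Mean level with SD over 4 samples, in CPM per kilobase of transcript on a log axis, for the subunit genes by role with vehicle (open circles) and with PTH (filled circles). The median of the core genes is 71.2 with vehicle and 90.2 with PTH, although Psma5, Psma3 and Psma2 lie below the ATPase ring with vehicle. The immunoproteasome genes, the assembly chaperones, Psme4 and Psmf1 lie at or below 20.9.

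Sequence shared with other genes limits some of these values. Stretches of at least 150 bases with at least 95% identity to another gene were found for 6 of the 14 core genes, among them Psma3 (to 4 annotated genes), Psmb5 (to Gm3375) and Psmb7 (to Nek6), and for 7 of the 29 regulatory genes. Of the immunoproteasome genes, Psmb9 had such a stretch in common with Tap1. With vehicle, Tap1 had a mean of 42.1 CPM and Psmb9 one of 11.4 CPM, and Tap1 fell with PTH. Whether reads of Tap1 entered the values of Psmb9, and so its ratio to Psmb6, was not tested. Psmb5, Psmd1 and Psmg3 lie in assembled loci that hold more than 1 symbol. The clearest case is Psme2, whose near copy Psme2b is among the 6 symbols with a suffix. Psme2b had 44.5, 61.6, 58.4 and 47.1 CPM with PTH and 38.8, 35.7, 35.5 and 35.5 CPM with vehicle, a log2 fold change of 0.54 ± 0.10 (adjusted p = 0.000962). Reads of the 2 genes may have been split between them. Psmc3ip, which encodes a recombination protein and no subunit, was not called (0.10 on the log2 scale, adjusted p = 0.663). The 4 pseudogenes Psmb5-ps, Psmb6-ps, Psmb6-ps2 and Psmb7-ps2 had too few counts to be tested.

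Of 24 genes for proteins that assemble with, deliver to or edit substrates at the proteasome, 9 rose and 6 fell, with a median log2 fold change of -0.01. Over all genes tested 23.3% rose and 22.5% fell. A 25th gene of the list, Paaf1, was not analysed here. Adrm1, Sem1 and Pomp were among those that rose. Adrm1, a ubiquitin receptor of the base, had 91.5, 91.1, 80.4 and 89.4 CPM with PTH and 64.1, 62.3, 53.1 and 59.4 CPM with vehicle (log2 fold change 0.56 ± 0.07, adjusted p = 6.89e-05). Sem1, the smallest lid subunit, listed under an older symbol, had 78.6, 102, 95.9 and 81.9 CPM against 74.1, 60.5, 53.5 and 58.8 CPM (0.54 ± 0.11, adjusted p = 0.00168). Pomp, the chaperone that is degraded as the core matures, had 75.01, 83.8, 92.8 and 77.9 CPM against 68.5, 61.4, 63.2 and 60.2 CPM (0.38 ± 0.08, adjusted p = 0.00169). None of these 3 genes overlapped between the groups. The deubiquitinases that edit chains at the particle did not pass the test. Usp14 had 53.5, 47.2, 49.6 and 52.9 CPM with PTH and 47.1, 51.8, 55.2 and 50.5 CPM with vehicle (-0.0080 ± 0.07, adjusted p = 0.937). Uchl5 had 10.8, 8.85, 11.5 and 11.01 CPM against 11.8, 11.9, 13.6 and 13.1 CPM (-0.26 ± 0.10, adjusted p = 0.0648). The largest rise in the list was that of Zfand2a, a stress-induced proteasome-binding protein, with 63.5, 62.4, 68.0 and 62.5 CPM against 34.4, 33.0, 32.5 and 32.4 CPM (0.95 ± 0.06, adjusted p = 1.13e-07). The largest fall was that of Akirin2, which brings proteasomes into the nucleus, with 33.2, 26.2, 32.8 and 29.7 CPM against 44.3, 50.4, 43.1 and 47.8 CPM (-0.60 ± 0.09, adjusted p = 0.000141). Among genes for ubiquitin and its activating enzymes, Rps27a and Ubb rose, with log2 fold changes of 1.32 and 0.23. Rps27a, a fusion of ubiquitin with a ribosomal protein, had 22.4, 54.6, 33.2 and 24.8 CPM with PTH and 15.8, 11.3, 12.96 and 13.8 CPM with vehicle (adjusted p = 0.00072). The activating enzymes Uba1 (0.05) and Uba6 (0.10) did not pass the test.

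Of 18 genes for factors known to control proteasome genes, or for proteins that act on those factors, 10 rose and 5 fell. Over all genes tested 23.3% rose and 22.5% fell. The median log2 fold change of the 18 genes was 0.45. Nfe2l1, known as the factor that raises subunit genes when the proteasome is impaired, had 402, 441, 432 and 402 CPM with PTH and 326, 300.2, 307 and 283 CPM with vehicle, a log2 fold change of 0.46 ± 0.07 (adjusted p = 0.000171). Nfe2l2, the regulator of the antioxidant response, had 302, 220.5, 239 and 271 CPM with PTH and 66.7, 69.7, 69.3 and 73.8 CPM with vehicle, a log2 fold change of 1.89 ± 0.10 (adjusted p = 1.38e-08). Neither overlapped between the groups, and the PTH samples of Nfe2l2 stood several times above those with vehicle. Maff, a small Maf protein that pairs with both factors, had the largest change in the list, with 69.2, 133, 118 and 80.3 CPM against 4.51, 4.75, 2.46 and 3.41 CPM (4.73 ± 0.25, adjusted p = 2.3e-08). Mafk (1.61) and Mafg (0.43) also rose, as did Bach1 (4.01-fold), a repressor that competes for the same sites. Ddi2, the protease that activates the Nfe2l1 protein, rose (0.56), while Ngly1, the glycosidase that acts before it, fell. Ngly1 had 24.7, 21.0, 23.2 and 22.3 CPM with PTH and 37.6, 38.0, 33.1 and 38.2 CPM with vehicle (-0.69 ± 0.08, adjusted p = 1.95e-05). Keap1, which holds the Nfe2l2 protein for degradation, fell by 0.27 on the log2 scale. The NF-Y subunits differed, with Nfyb at 1.08, Nfyc at -0.28 and Nfya, which did not pass the test, at 0.04. No value here ties these factors to the change of the subunit genes.

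**Figure D5:**
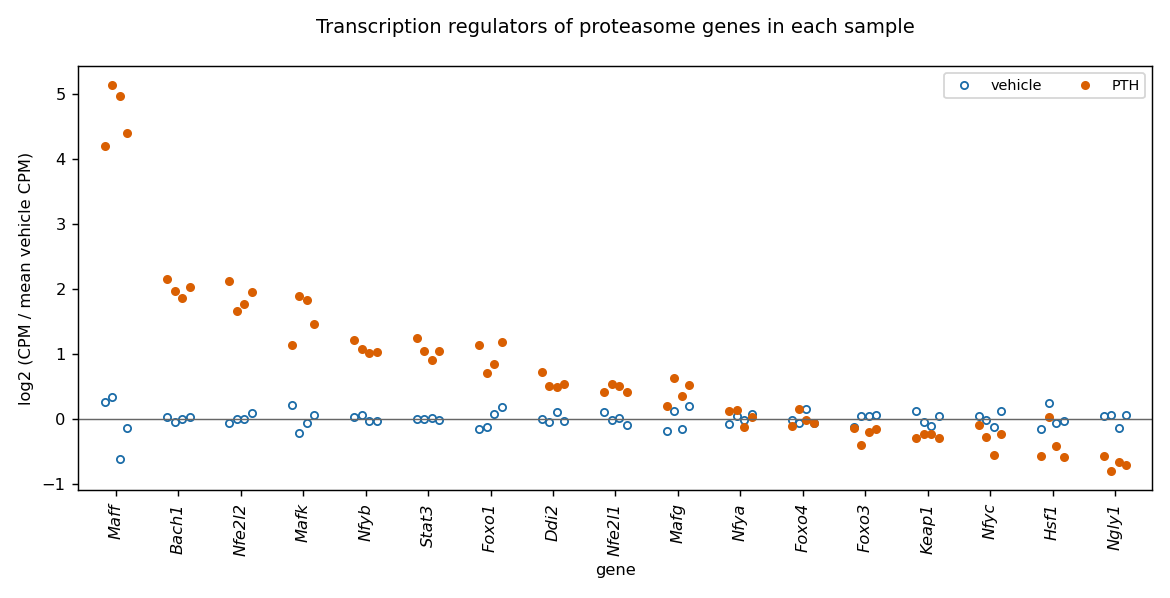
Log2 of each sample's CPM over the mean CPM of the vehicle samples, for 17 genes. They encode factors known to control proteasome genes or proteins that act on those factors. Each gene has 4 vehicle samples (open circles) and 4 PTH samples (filled circles). Nfe2l3 is left out for its low level. Maff, Bach1, Nfe2l2 and Mafk stand farthest above the vehicle samples, and Ngly1 stands lowest.

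Genes of antigen presentation and of the interferon response, with which the immunoproteasome genes are commonly induced, were mixed. Of 22 genes 7 rose and 3 fell, against 23.3% up and 22.5% down over all genes tested. The median log2 fold change was 0.06. Irf1, a known activator of the immunoproteasome genes, had 36.1, 36.6, 35.1 and 37.2 CPM with PTH and 29.9, 29.3, 29.0 and 24.5 CPM with vehicle (0.36 ± 0.08, adjusted p = 0.00196). Ifit1, an interferon-induced gene, had the largest rise, with 111, 106, 80.4 and 118 CPM against 33.1, 48.3, 39.3 and 37.0 CPM (1.39 ± 0.13, adjusted p = 3.67e-06). In both genes the groups were fully apart. Tap1, the neighbour of Psmb9, fell, with 34.3, 34.5, 29.5 and 34.9 CPM against 42.4, 41.8, 42.0 and 42.0 CPM (-0.34 ± 0.07, adjusted p = 0.00187). B2m, the invariant chain of class I molecules, had 999, 785, 929.9 and 969 CPM against 929.8, 985, 995 and 983 CPM (-0.08 ± 0.08, adjusted p = 0.472). The largest fall was that of Ifngr2, a chain of the interferon γ receptor, with 65.1, 52.0, 61.9 and 68.1 CPM against 89.96, 90.2, 82.8 and 86.5 CPM (-0.50 ± 0.08, adjusted p = 0.000367). Macrophages also express the immunoproteasome. Of 10 macrophage markers 4 rose and none fell, against 23.3% up and 22.5% down over all genes tested. None was at 0 in any sample, and their summed level was 1539 to 2003 CPM with PTH and 978 to 1586 CPM with vehicle. Most of this sum was Lyz2, with a mean of 1417 CPM with PTH and 914 CPM with vehicle. The part of macrophages in the values above was not tested, and in bulk RNA more cells of a type and more RNA per cell cannot be told apart.

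Genes of a list of ubiquitin ligases, some of them known to act on osteoblast regulators, moved in both directions. Of 20 genes 7 rose and 5 fell, against 23.3% up and 22.5% down over all genes tested. The median log2 fold change was 0.03. Fbxo32, a ligase known from muscle atrophy, rose most, with 124, 204, 193 and 149 CPM with PTH and 55.7, 53.7, 55.6 and 54.4 CPM with vehicle (1.61 ± 0.13, adjusted p = 1.1e-06). Trim63, the other ligase known from muscle atrophy, fell most, with 0.156, 0.150, 0.131 and 0.190 CPM against 1.83, 1.63, 1.63 and 1.15 CPM (-3.29 ± 0.34, adjusted p = 9.65e-06), and was near the limit of detection with PTH. Among ligases of Runx2 and the Smad proteins, Smurf2 was up by 0.75 and Smurf1 was at -0.28 on the log2 scale. Nedd4 (-0.33) and Wwp1 (-0.20) of the same list also fell, and Stub1 (0.05) was not called. The groups did not overlap for Fbxo32, Trim63, Smurf2 or Smurf1.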

How the data were processed

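RNA of 4 PTH-treated and 4 vehicle-treated cultures, grouped by their labels, was sequenced. The authors prepared poly(A)-enriched libraries, read them as pairs of 150 bases, aligned them to GRCm38 with HISAT2 and assembled transcripts with StringTie2. They deposited counts per gene, made by StringTie2's companion script from transcript coverage and not normalized. Tool versions, the annotation, the strand setting and the read length given to that script are not given in the sources used here, and no batch is labelled. Because the strand setting is not given, reads of a gene and of an overlapping antisense gene cannot be told apart.

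The whole table was fitted by edgeR 4.0.16 (TMM, two-sided quasi-likelihood test, filterByExpr at a count of 10 and a total of 15) in R 4.3.3, with Benjamini-Hochberg adjustment and a threshold of 0.05. The study used DESeq2, and DESeq2 1.42.0 was an alternative here. Where a symbol had several rows, the row with the highest mean count stood for it. Total counts of 33605610 to 56090654 per sample limit genes with few counts. The 95% intervals of fold changes are 1.96 times the SE of the fit on either side. They use the normal distribution, so they are approximate and narrower than the F-test gives. Positions and principal transcript lengths are from GENCODE M21, promoters from RefSeq, and similar sequences from blastn 2.17.0. Samples with the same number did not deviate together (correlations of -0.04 to 0.03), so the numbers were not taken as pairs.

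The genes named are the called members with the largest change each way and the member nearest 0 in each role, the called members with the largest change in each other list, and a set of genes listed by name. Psma3, Psmd5, Psme2b and the other genes given by fold change alone were added to complete the account. A few genes that this rule names are not reported here. The members, lists and alternatives were chosen with earlier results of these data known. The alternatives were DESeq2, its size factors in edgeR, no filter, a replicate block, leaving out each sample, counts halved for the read length, rows summed by symbol, and per-sample offsets for GC content and for transcript length (lowess with a span of 0.3). Leaving out PTH samples 2 and 3 together was added after seeing the data. The fits were tested on simulated counts. Python 3.11.15, pandas 2.3.3, NumPy 2.4.6 and matplotlib 3.10.9 were used for tables and plots.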

Additional observations from a re-analysis of the deposited data

Results flagged for a closer look

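In 4 of 134 groups of 4 samples, 1 sample stood far from the other 3 by Dixon's test at the 95% level, which chance gives in about 1 of 20 groups. Psmb5 was highest in vehicle sample 1, at 60.9 CPM against 52.8 to 52.9 CPM in the other vehicle samples. Psmd4 was highest in the same sample, at 71.6 CPM against 65.5 to 65.9 CPM. Ngly1 was lowest in vehicle sample 3, at 33.1 CPM against 37.6 to 38.2 CPM. Tap1 was lowest in PTH sample 3, at 29.5 CPM against 34.3 to 34.9 CPM. In each of these genes the groups of PTH and vehicle samples did not overlap with the sample included.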

How the results depend on the processing

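The count of upregulated core genes was 14 with each sample left out in turn, with DESeq2, with the replicate block and without PTH samples 2 and 3, and 11 with the length offset. No call turned its direction. Values near 0 did change sign. With the length offset the proteasome-associated median went from -0.01 to 0.06. Psme1, Psmg3 and Psmd11 went from 0.06 to -0.06, 0.20 to -0.01 and -0.04 to 0.04. Psmd1 (-0.0042 to 0.08), Psmd3 (-0.05 to 0.01) and Psmd7 (0.0025 to -0.0022) changed sign as well. In the other lists, genes that changed sign included Usp14 (-0.0080 to 0.07). None of these named genes was called. The median of the ligases reached -0.0088 without PTH sample 1. The number of upregulated immunoproteasome genes, 1, became 0 with DESeq2, with its size factors in edgeR and with no filter on low counts, and was 0 to 1 with samples left out in turn. The number of downregulated regulatory genes, 3, became 1 with the length offset, 0 without PTH samples 2 and 3, and 1 to 3 with samples left out in turn. In the same order, the downregulated genes numbered 3, 3 and 5 to 6 among the proteasome-associated genes (6 in all samples) and 2, 3 and 2 to 4 among the transcription regulators (5 in all samples). Downregulated antigen presentation genes, 3 in all samples, numbered 3 to 5 with samples left out in turn. The cause of these changes was not tested. Leaving out samples also lowers the number of samples fitted. Depth limits Psma8, Psmb11 and Trim63 in PTH samples.

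The sample numbers are shared between the groups but did not pair the samples. With the replicate block, 0 immunoproteasome genes, 14 core genes and 9 regulatory genes were called up, where 21.3% of all genes were, and 2 regulatory genes were called down. Psmb8, Psmd12, Psme2 and Psmf1 lost their call under the block, with adjusted p of 0.0939, 0.0859, 0.0931 and 0.0765.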
